A study of Mus musculus with 28 samples.

Results

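MicroRNA (miRNA) features were followed in RNA immunoprecipitated together with PKR, a kinase, from mouse embryonic fibroblasts. The features described here are those annotated as miRNA in the deposited count tables with a mean of at least 10 counts over the 24 libraries of datasets A and B, less Mir23a, Mir27a, Mir24-2, Mir143 and Mir145. They numbered 176 of 1590 miRNA features and 30210 features in all. They were chosen by their mean raw count over all 24 libraries and by no test of a difference between groups. A feature that is high in some groups only can still pass such a minimum. A mean of at least 10 counts in every one of the 8 groups of 3 libraries was reached by 108 of the 176. By dataset, 14 reached it in A but not in B, and 13 in B but not in A. Levels are given as a description and differences are tested. Mir3057 and Mir19b-1 lay just inside the minimum, with means of 10.5 counts each, and Mir574 and Mir494 just outside it, with 9.79 and 9.75 counts.

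The fibroblasts had been reconstituted with a PKR whose motifs for binding double-stranded RNA are all mutated (RM) or with wild-type PKR (WT), and were treated with 0.1 mM palmitic acid, a saturated fatty acid, or mock-treated. The 4 groups were therefore RM palmitate, RM mock, WT palmitate and WT mock. Datasets A and B each held 3 libraries per group, which the series calls biological replicates, and dataset C held 1 library per group. The series sought RNAs enriched with WT PKR after palmitate. How the cells were made to express each form of PKR, and whether each line was 1 clone, is not given in the sources used here. No input RNA or control precipitate was analysed here, so a change in the cells' content of an RNA, in its recovery with PKR and in background cannot be told apart. Nor can fewer cells be told apart from less RNA per cell.

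A miRNA is cut from a hairpin in a longer transcript, first by Drosha with its partner Dgcr8 in the nucleus and then, after export by Xpo5, by Dicer1 in the cytoplasm. An Argonaute protein holds the short mature strand, and bases near its 5′ end, the seed, pair with target mRNAs. Hairpins that lie close together are often cut from 1 transcript. PKR is activated when its RNA-binding motifs bind double-stranded RNA, and then phosphorylates the translation factor eIF2α.

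Of the 176 features, 145 carry a Mir symbol, 22 a Gm symbol and 9 have no entry in GENCODE M21 and are named by their Ensembl identifiers. Mature sequences were found in RefSeq (GRCm38.p6) for 138 features. The following are shown because the levels or the differences between RM and WT below turn on them. They are written 5′ to 3′, and the capitals mark the seed, bases 2 to 8. Mir10a, Mir10b and Mir99b are the features with a Mir symbol that have the highest levels, Mir100 shares the seed of Mir99b, and Mir21a is a miRNA abundant in many fibroblast cultures:
miR-10a-5p: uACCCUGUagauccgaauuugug
miR-10b-5p: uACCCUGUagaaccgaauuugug
miR-99b-5p: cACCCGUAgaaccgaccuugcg
miR-100-5p: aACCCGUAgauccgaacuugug
miR-21a-5p: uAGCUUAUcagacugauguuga
Members of the largest shared seed and of the seed shared by 4 hairpins that were high in RM libraries of dataset A are:
let-7i-5p: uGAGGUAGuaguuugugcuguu
miR-92a-3p: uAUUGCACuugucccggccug
miR-92b-3p: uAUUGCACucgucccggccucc
miR-25-3p: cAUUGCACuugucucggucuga
Single miRNAs named below in the comparisons of RM with WT or of palmitate with mock libraries come last. With all libraries included, Mir484 passed no edgeR test at an adjusted p under 0.05. Mir27b passed only in the average over treatments and datasets, and not in most alternatives to the processing:
miR-192-5p: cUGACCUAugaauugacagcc
miR-671-5p: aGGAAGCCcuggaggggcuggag
miR-5125: uCUGCCUGggauuuccuugu
miR-763: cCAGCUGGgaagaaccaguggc
miR-1906: uGCAGCAGccugaggcagggcu
miR-410-3p: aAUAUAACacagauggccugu
miR-484: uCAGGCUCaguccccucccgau
miR-27b-3p: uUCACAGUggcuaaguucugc

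Another set of sequences carries large differences between RM and WT. Of the features with a Gm symbol, 6 are 56 or 57 nucleotides (nt) long and nearly the same in sequence. Outside this group none of them matched a transcript of GENCODE M21 at 95% identity over 90% of its length. Only GENCODE M21 transcripts were searched, so a match to RNAs that it lacks was not tested. These 6 features are called the 57-nt family below. Gm24245 and Gm24270 have the same sequence as Gm23935. In the lines below (GENCODE M21, sense strand), capitals mark bases that differ from Gm23935, with positions counted from 1 at the 5′ end of Gm23935. Gm24187 differs by G11A. Gm25911 differs by G14A and lacks 1 base. Gm23388 differs by G2T, C16G, G21T and G48T.
Gm23935: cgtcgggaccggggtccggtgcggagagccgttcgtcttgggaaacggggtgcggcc
Gm24187: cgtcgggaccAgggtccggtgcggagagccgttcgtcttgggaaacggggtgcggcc
Gm25911: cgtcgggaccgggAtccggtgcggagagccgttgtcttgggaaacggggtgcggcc
Gm23388: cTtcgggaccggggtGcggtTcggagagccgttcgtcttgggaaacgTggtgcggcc

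Total counts ranged between 254762 and 8036622 per library in datasets A and B. The shallowest library was RM palmitate replicate 2 of dataset A, and the next had 2204502 counts. Of 12 fibroblast markers none was at 0 in every library, and their summed level was 8898 to 12975 CPM (a feature's count scaled to a common library total, here and in the tests after TMM scaling) in dataset A and 15072 to 23506 in dataset B. Lum, on the fibroblast list, was near the floor, at no more than 1.10 CPM in any library. The summed levels of the epithelial, endothelial and immune lists reached at most 13.5 CPM in any library, and Adgre1, Cd3e and Tie1 were at 0 throughout. WT mock replicate 1 of dataset B stood apart from its group. Among the 145 features with a Mir symbol, 100 had their highest level of dataset B in that library, and its level was a median 6.98 times the mean of WT mock replicates 2 and 3. For the 31 features without a Mir symbol the same ratio had a median of 0.840. Counts of called features and medians of dataset B that this library moves are therefore also given without it. It was singled out by the values of the miRNA features themselves, so counts and p-values without it are a description. RM palmitate replicates 2 and 3 of dataset B were the shallowest libraries of that dataset (2204502 and 2696431 counts), and values without them are given where they change a call.

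The levels spanned several orders of magnitude, and the highest belonged to features without a Mir symbol. Averaged over 24 libraries, ENSMUSG00000092984 (mm9 chromosome 2, 72850911-72850984, minus strand) had 12012 CPM computed on the plain library totals, without TMM scaling, as are the levels in this and the next paragraph. It was followed by Gm23935, ENSMUSG00000093077 and ENSMUSG00000093337, and then by Mir10b with 5538. Gm24187, Gm24270, Mir10a, Mir99b and Gm25911 completed the 10 highest. The order differed between the datasets. ENSMUSG00000092984 had rank 1 in dataset A and rank 9 in dataset B, where ENSMUSG00000093337, with 12278 CPM, ENSMUSG00000093077 and Gm24187 led. Mir10b had rank 4 in A and 7 in B, and Mir99b rank 7 in A and 18 in B. Mir10a and Mir10b lie within the Hox gene clusters. Behind them came Mir127 of the imprinted Dlk1-Dio3 region, Mir22, Mir5099, Mir21a and Mir182.

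Datasets A and B differed in these levels. Mir10b averaged 9577 CPM in A and 1498 in B. Mir99b averaged 4822 and 247, and Mir5099 2368 and 60.5. ENSMUSG00000092984 was 20.5 times and Mir100 33.3 times as high in A as in B. In the other direction, Mir3113 was 12 times, Mir5101 5.94 times and Mir149 5.0 times as high in B. Of the 145 features with a Mir symbol 100 were higher in A, with a median ratio of 1.42, and of the 31 without one 11 were, with a median ratio of 0.703. The datasets were sequenced apart, and no test was made of these ratios.

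The share of all counts that fell on the 176 features separated RM from WT in mock-treated cells. In dataset A it was 5.97 ± 2.24% in RM mock and 14.6 ± 1.12% in WT mock libraries (SD, n = 3 each), with no overlap. In dataset B it was 4.37 ± 0.782% in RM mock and 7.56 ± 1.16% in WT mock libraries, also with no overlap. The exact two-sided permutation p was 0.1 in both, the smallest that 3 against 3 libraries allow, and 0.267 after adjustment over the 8 comparisons of shares. The 2 classes of features went different ways. Features without a Mir symbol held 1.89 ± 1.09% of counts in RM palmitate, 2.13 ± 0.530% in RM mock, 9.40 ± 5.33% in WT palmitate and 12.1 ± 1.29% in WT mock libraries of dataset A. Features with a Mir symbol held 5.39 ± 2.18%, 3.84 ± 1.72%, 3.0 ± 1.18% and 2.57 ± 0.333% in those groups, and the RM and WT libraries overlapped.

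**Figure D1:**
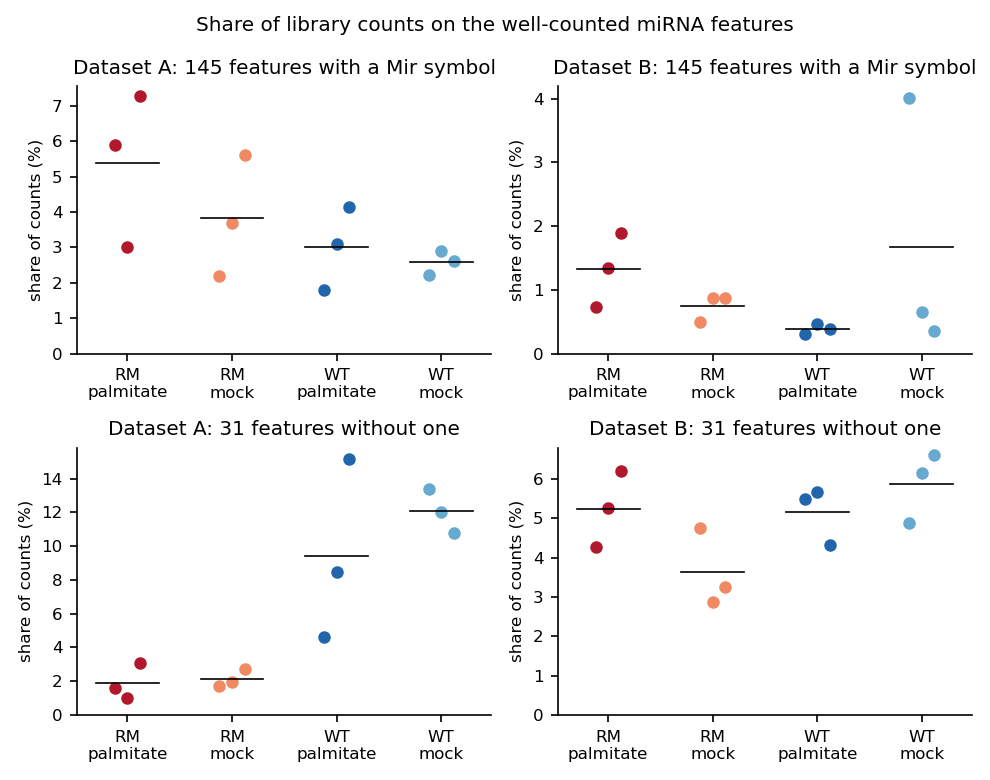
Share of each library's counts (%, linear axis from 0) on the 145 features with a Mir symbol (top) and the 31 without one (bottom), in dataset A (left) and dataset B (right). Each point is 1 library and the line is the mean of 3. In dataset A the RM libraries lie below all WT libraries for features without a Mir symbol, and in dataset B WT mock replicate 1 stands at 4.02% for features with one, against 0.658 and 0.359% in the other WT mock libraries.

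In dataset B the features without a Mir symbol held 5.25 ± 0.969% in RM palmitate, 3.63 ± 0.993% in RM mock, 5.16 ± 0.734% in WT palmitate and 5.88 ± 0.899% in WT mock libraries. Features with a Mir symbol held 0.731, 1.34 and 1.90% in the RM palmitate libraries, against 0.312, 0.468 and 0.387% in the WT palmitate libraries. Every RM palmitate library lay above every WT palmitate library (exact two-sided permutation p = 0.1, the smallest possible, adjusted p = 0.533). The share of counts on small nucleolar RNA features also varied. It was 32.7 ± 11.5% in RM palmitate, 46.6 ± 8.92% in RM mock, 30.2 ± 15.7% in WT palmitate and 22.3 ± 6.52% in WT mock libraries of dataset A. Its part in the shares of the miRNA features was not tested.

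In mock-treated cells of dataset A, 18 of the 170 features that passed the filter on low counts differed between RM and WT. Of these 5 were higher and 13 lower in RM (edgeR's quasi-likelihood test, Benjamini-Hochberg adjusted p under 0.05 over 11328 features). Of all features 3.74% were called, 0.715% higher and 3.03% lower. In the same comparison 30 of the 170 lay higher in every RM mock than in every WT mock library and 22 lower, as did 15.1% and 17.5% of all features. Under palmitate 8 were higher and 15 lower in RM, where 3.43% of all features were called, 0.936% higher and 2.49% lower. There 15 lay higher without overlap and 22 lower, beside 7.05% and 11.6% of all features. The features lower in RM were mainly those without a Mir symbol. Of 29 of these tested, 12 were lower and 0 higher in mock-treated cells, and 13 lower and 1 higher under palmitate. Their median log2 fold change was -1.02 in mock-treated and -0.95 in palmitate-treated cells, beside -0.01 and -0.02 over all features. For features with a Mir symbol the medians were 0.10 and 0.31.

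Every one of the 6 features of the 57-nt family was lower in RM than in WT in dataset A, under both treatments. Gm23935 had 841, 752 and 1145 CPM, again after TMM scaling, in the RM palmitate libraries and 1787, 989.8 and 699 CPM in the RM mock libraries. The WT palmitate libraries had 13433, 30701 and 51032 CPM and the WT mock libraries 34142, 34970.5 and 37717 CPM. No RM library reached the lowest WT library. The log2 fold change, RM over WT, was -4.94 ± 0.66 (SE) in mock-treated cells, which is 30.7-fold lower (edgeR adjusted p = 8.93e-05), and -5.12 ± 0.67 under palmitate (edgeR adjusted p = 0.000164). The other 5 had log2 fold changes of -3.58 to -2.33 in mock-treated cells. Gm24187, which differs from Gm23935 by 1 base, had 813, 489 and 322 CPM in RM mock and 2876, 2715 and 2601 CPM in WT mock libraries (log2 fold change -2.33 ± 0.45). Gm24270 has the sequence of Gm23935, and its log2 fold change was -2.37 ± 0.45. The calls of the 6 features in dataset A held in all 11 alternatives to the processing. These include the removal, in turn, of each library of the groups compared, but not of the other libraries.

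**Figure D2:**
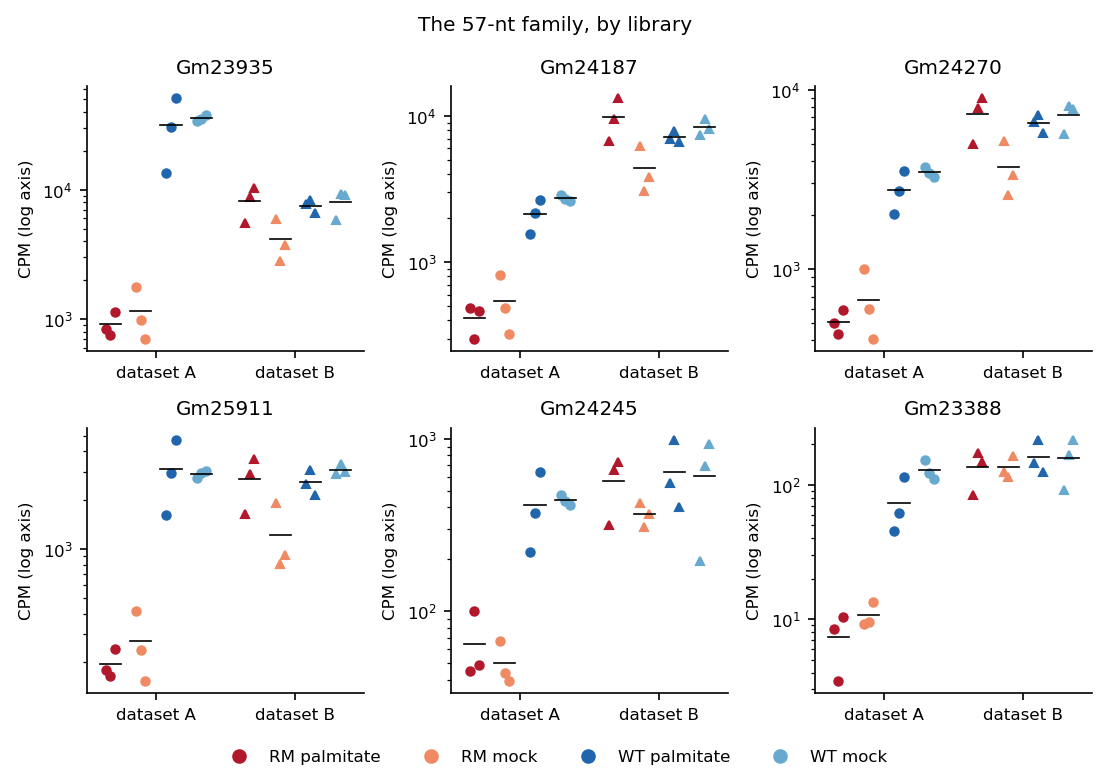
CPM (log axes, which differ between panels) of the 6 features of the 57-nt family in each library of dataset A (circles) and dataset B (triangles). Colours give the 4 groups, and the lines are means of 3 libraries. In dataset A all RM libraries lie below all WT libraries in each panel, and in dataset B the groups overlap more.

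In dataset B the family differed less. Gm23935 had 5512, 8762 and 10282 CPM in RM palmitate, 5959, 2833 and 3746 CPM in RM mock, 7744, 8316 and 6589.6 CPM in WT palmitate and 5866, 9306 and 9036 CPM in WT mock libraries. The RM mock libraries overlapped the WT mock libraries at the lowest of these, WT mock replicate 1. Gm25911, Gm24270, Gm24187 and Gm23935 were lower in RM than in WT in mock-treated cells, at log2 fold changes of -1.34, -0.95, -0.93 and -0.95 (edgeR adjusted p between 0.0149 and 0.0492). These calls were less firm. That of Gm23935 was lost in 8 of 12 alternatives, among them the removal of WT mock replicates 2 or 3 or of RM mock replicates 2 or 3, with an adjusted p of at most 0.22. Leaving out WT mock replicate 2, RM mock replicate 2 or RM mock replicate 3 also ended the calls of Gm25911, Gm24270 and Gm24187. Under palmitate the log2 fold change of Gm23935 was 0.12 ± 0.31 in dataset B. Because the 6 features are alike, reads may have been divided among them in ways not given in the sources used here, and their counts are uncertain one by one.

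A further 7 features without a GENCODE M21 entry were lower in RM in dataset A. ENSMUSG00000092927 had 1.82, 0 and 0.828 CPM in RM palmitate and 2.13, 2.17 and 1.19 CPM in RM mock libraries, against 49.6, 45.1 and 44.9 CPM in WT palmitate and 79.5, 54.4 and 47.6 CPM in WT mock libraries. The groups did not overlap. Its log2 fold change was -5.03 ± 0.29 in mock-treated cells (edgeR adjusted p = 2.19e-09) and -5.15 ± 0.35 under palmitate (edgeR adjusted p = 3.82e-08). ENSMUSG00000076291 differed by -5.68 ± 0.53 and -4.78 ± 0.62, and ENSMUSG00000093098 by -2.66 ± 0.41 and -2.39 ± 0.41, in the same order. These 3 were called in all 11 alternatives of both comparisons. The abundant ENSMUSG00000092984 had 6203, 7113 and 9992 CPM in RM mock and 47128, 39473 and 48279 CPM in WT mock libraries. Its log2 fold change was -2.53 ± 0.62 (edgeR adjusted p = 0.0245), a call that the removal of any 1 of these 6 libraries ended (adjusted p up to 0.138). ENSMUSG00000093337 and ENSMUSG00000093361 were lower in both treatments and ENSMUSG00000093077 under palmitate alone. In mock-treated cells the call of ENSMUSG00000093337 was lost in 5 of 11 alternatives and that of ENSMUSG00000093361 in 8, the removal of WT mock replicates 1 or 2 or of any RM mock library among them for both. Under palmitate the 3 calls were lost in 3, 7 and 6 of 11 alternatives, in each case on removal of replicate 2 or 3 of the WT palmitate libraries or replicate 1 of the RM palmitate libraries. The adjusted p was at most 0.165.

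Among features with a Mir symbol, Mir192 rose in RM in dataset A in both treatments. It had 16.0, 10.3 and 25.0 CPM in RM palmitate and 9.87, 14.3 and 13.2 CPM in RM mock libraries, against 2.46, 5.66 and 7.89 CPM in WT palmitate and 3.59, 3.93 and 2.80 CPM in WT mock libraries. All RM libraries lay above all WT libraries, but the value of 10.3 CPM is from RM palmitate replicate 2, with 254762 counts, and rests on few reads. The log2 fold change was 1.83 ± 0.34 in mock-treated cells (edgeR adjusted p = 0.00305) and 2.0 ± 0.32 under palmitate (edgeR adjusted p = 0.00095), in each case called in all 11 alternatives. miR-192 is a target of p53 in human cells.

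Mir671, in the gene Chpf2, had 3.19, 3.91 and 8.01 CPM in RM mock and 0.828, 0.925 and 0.933 CPM in WT mock libraries of dataset A (2.46 ± 0.51, edgeR adjusted p = 0.00742). The groups did not overlap, but the call was lost without WT mock replicate 2 (adjusted p = 0.0561). Under palmitate it differed by 1.90 ± 0.43, lost without WT palmitate replicate 2 or RM palmitate replicate 3. Mir5125, in the gene Srrm2, had 8.51, 7.10 and 8.45 CPM in RM mock and 3.04, 3.47 and 2.49 CPM in WT mock libraries (1.39 ± 0.29, edgeR adjusted p = 0.00823), called in all 11 alternatives. Mir341 and Mir410, both of the Dlk1-Dio3 region, also rose in RM mock libraries, by 1.40 and 3.55. Mir410 had 42.1, 50.8 and 50.7 CPM in RM mock and 4.42, 2.78 and 5.29 CPM in WT mock libraries, and its adjusted p of 0.047 was past the threshold in 3 of 11 alternatives, being lost on removal of any of these 6 libraries. Mir341 was lost without replicate 1 or 2 of either group (adjusted p up to 0.21).

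Under palmitate further miRNAs rose in RM in dataset A. Mir486, a miRNA of red blood cells and muscle that lies in Ank1, had 43.3, 103 and 59.9 CPM in RM palmitate and 8.68, 16.3 and 17.8 CPM in WT palmitate libraries (2.11 ± 0.39, edgeR adjusted p = 0.00844), called in all 11 alternatives. Gm24589, which lies inside the polycystin gene Pkd1, rose by 2.88 ± 0.56 (edgeR adjusted p = 0.00857). Mir23b rose by 1.21 ± 0.27, Mir92b by 2.32 ± 0.50, Mir199b by 1.59 ± 0.40 and Mir92-2 by 1.99 ± 0.51, with edgeR adjusted p between 0.0137 and 0.0498. The calls of Gm24589, Mir23b, Mir92b, Mir199b and Mir92-2 were each lost without WT palmitate replicate 2 or RM palmitate replicate 3, with adjusted p up to 0.293, and the number of called features was 12 without WT palmitate replicate 2 and 15 without RM palmitate replicate 3. In the other direction, Mir3102 had 0.456, 1.01 and 1.48 CPM in RM mock and 8.28, 8.33 and 9.33 CPM in WT mock libraries (-3.09 ± 0.57, edgeR adjusted p = 0.00592). Arhgef17, the gene it lies in, differed by 0.13 ± 0.23. Mir224 was lower in RM under palmitate, at -1.21 ± 0.32, a call kept in 4 of 11 alternatives and lost, among others, with total counts in place of TMM scaling (adjusted p = 0.259).

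**Figure D3:**
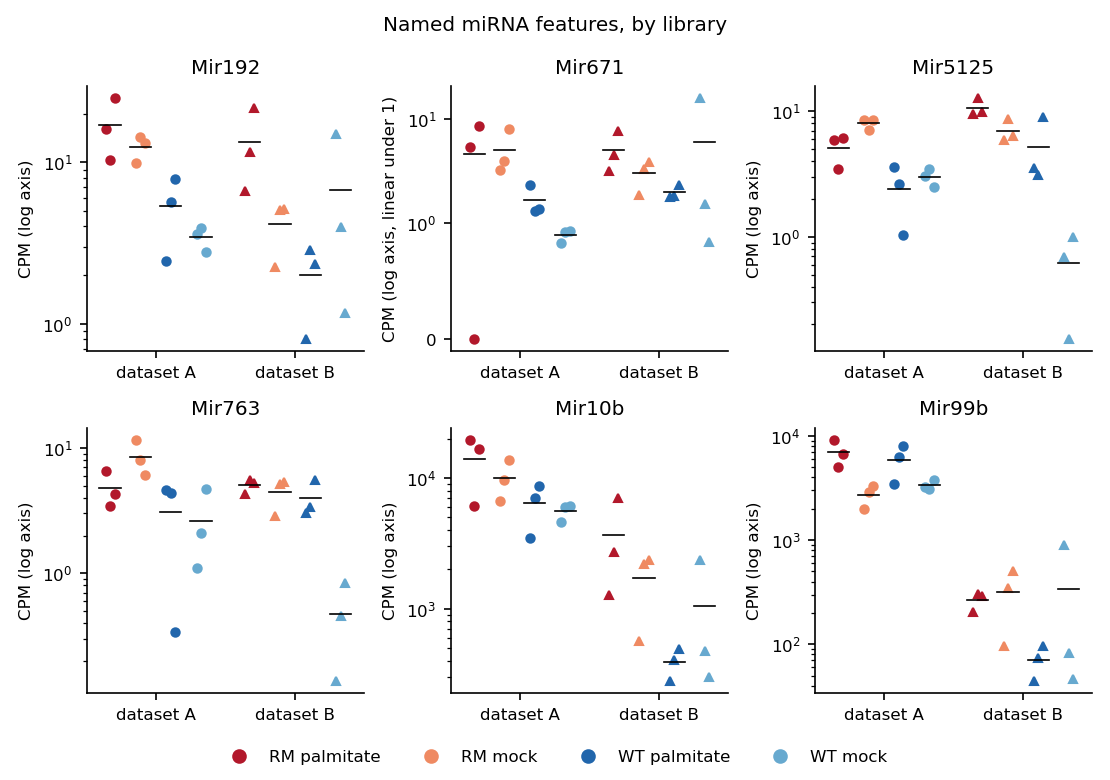
CPM of Mir192, Mir671, Mir5125, Mir763, Mir10b and Mir99b in each library of dataset A (circles) and dataset B (triangles) on log axes (that of Mir671 is linear under 1). Colours give the 4 groups, and lines are means of 3 libraries. Mir192 lies higher in all RM than in all WT libraries of dataset A, and Mir5125 and Mir763 are low in the WT mock libraries of dataset B.

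The comparison of RM with WT in mock-treated cells of dataset B turned on WT mock replicate 1. With all libraries, the 171 features tested had a median log2 fold change of -1.53, and those with a Mir symbol of -1.67, although only 11 were called, 6 higher and 5 lower (14.1% of all features were called, 7.88% higher and 6.24% lower). Without that library the medians were -0.08 and 0.04, and again 6 were higher and 5 lower, 8 of the 11 being called both ways (11.4% of all features). For the removal of other libraries the share of all features called is not given. Leaving them out moved the count further. It was 32 without WT mock replicate 3, 4 without WT mock replicate 2 or RM mock replicate 3, 5 without RM mock replicate 2, 6 without any 1 WT palmitate library and 7 without RM palmitate replicate 2.

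Of the features that rose in that comparison, Mir5125 had 5.95, 8.73 and 6.39 CPM in RM mock and 0.689, 0.152 and 1.0 CPM in WT mock libraries of dataset B, the first of these WT values being replicate 1. The groups did not overlap. It rose by 3.49 ± 0.49 (edgeR adjusted p = 0.000601) and by 3.61 ± 0.61 without WT mock replicate 1 (edgeR adjusted p = 0.00349). Srrm2, whose counts are far higher, rose by 0.69 ± 0.18. Mir763, in Hmga2, a chromatin protein gene active in embryonic cells, had 2.85, 5.18 and 5.37 CPM in RM mock and 0.138, 0.457 and 0.836 CPM in WT mock libraries and rose by 3.19 ± 0.47 (edgeR adjusted p = 0.000661). Hmga2 differed by -0.35 ± 0.13 (edgeR adjusted p = 0.0901). The WT mock values of Mir5125 and Mir763, about 1.0 CPM or less, are near the floor, so the size of their differences is uncertain. Mir5101 rose by 1.58 ± 0.26 and its host Syne2 by 0.99 ± 0.19. These 3 calls held in all 12 alternatives, that without WT mock replicate 1 included. Gm25994, Mir1188 and Mir1906-2 were called with all libraries at 1.31, 1.98 and 1.63, and Mir1188 and Mir1906-2 were not called without WT mock replicate 1. Each of these 3 was also lost on removal of WT mock replicate 2 or RM mock replicate 3 (adjusted p up to 0.156).

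Under palmitate in dataset B, RM libraries held more of most miRNA features than WT libraries. Of 171 features tested, 151 had a positive log2 fold change, with a median of 1.5, and 88 had all RM palmitate above all WT palmitate libraries, among them 83 of 140 with a Mir symbol. Of all features 14.7% lay higher in that way, and 5 of the 171 lay lower, as did 15.3% of all features. Few were called: 2 were higher and 1 lower, while 7.81% of all features were called, 4.2% higher and 3.62% lower. Neither group holds WT mock replicate 1, but the spread is estimated over all 12 libraries of the dataset. Without that library 55 were higher and 1 lower, and 11.3% of all features were called. The count was 23 without RM palmitate replicate 1, 5 without WT mock replicate 3 and 1 on removal of replicate 2 or 3 of RM palmitate or replicate 1 or 2 of WT palmitate. The share of all features called is not given for these single removals. With neither RM palmitate replicate 2 nor 3, 1 library of that group is left, so no count of called features is read from that fit. The RM palmitate libraries differed among themselves, with shares of 0.731, 1.34 and 1.90% for the features with a Mir symbol.

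Mir484 led the features called without WT mock replicate 1, which was set aside because features with a Mir symbol were high in it. The adjusted p-values of that fit thus follow a choice made after the values were seen, and no further library was left out of it. Mir484 had 15.2, 24.9 and 23.3 CPM in RM palmitate and 4.16, 5.73 and 3.34 CPM in WT palmitate libraries, and rose by 2.25 ± 0.28 (edgeR adjusted p = 0.000431). Mir214, which lies with Mir199a-2 in a transcript antisense to Dnm3, had 14.3, 28.8 and 23.9 CPM in RM palmitate and 4.80, 8.33 and 7.18 CPM in WT palmitate libraries, and rose by 1.69 ± 0.27. Mir106b rose by 2.88, Mir155, a miRNA of activated immune cells, by 2.75, Mirlet7d by 2.73 and Mir23b by 1.60, with edgeR adjusted p between 0.0039 and 0.012. With all 12 libraries the called features were Gm23419, which was lower in RM at -1.02 ± 0.17, and Mir3064 and Gm22133, which were higher by 1.13 ± 0.29 and 1.55 ± 0.35. Mir3064 and Gm22133 were kept in 6 and 5 of 12 alternatives, and both were lost on removal of replicate 1 or 2 of the WT palmitate libraries or replicate 2 or 3 of the RM palmitate libraries (adjusted p up to 0.46). Mir10b had 1278, 2713 and 6999.5 CPM in RM palmitate and 279, 406 and 492 CPM in WT palmitate libraries. These groups did not overlap, and the difference of 3.22 ± 1.0 had an edgeR adjusted p of 0.09 with all libraries and 0.0387 without WT mock replicate 1.

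**Figure D4:**
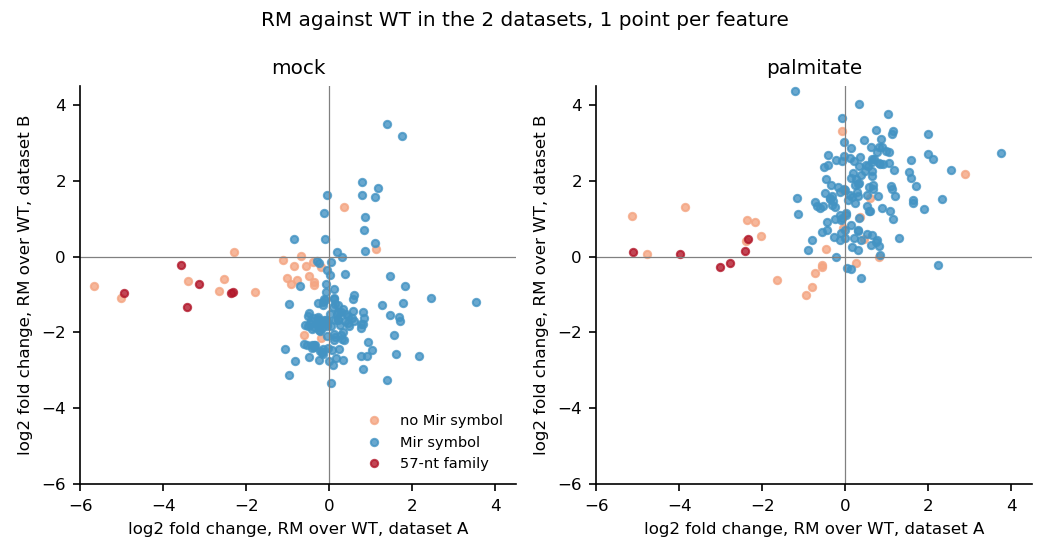
Log2 fold change of RM over WT in dataset A (x axis) against dataset B (y axis) for mock-treated (left) and palmitate-treated cells (right), 1 point per feature, coloured by class. The 57-nt family lies far to the left in both panels, with Gm23935 at -4.94 on the x axis and -0.95 on the y axis in the left panel. Features with a Mir symbol lie mostly below 0 on the y axis for mock-treated cells, with a median of -1.67, and above it for palmitate, with a median of 1.65.

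Averaged over both treatments and both datasets, 15 features were higher and 18 lower in RM, where 25.5% of all features were called. Features without a Mir symbol made up 17 of the 18 that were lower and 2 of the 15 that were higher. Gm23935 had a log2 fold change of -2.72 ± 0.24 (edgeR adjusted p = 1.16e-08) and Mir3102 one of -1.94 ± 0.46. Mir5125 was higher by 1.75 ± 0.19 (edgeR adjusted p = 3.16e-07), Mir763 by 1.46 ± 0.27 and Mir5101 by 0.96 ± 0.20. Their hosts Srrm2, Hmga2 and Syne2 were also called, higher by 0.39 ± 0.14, 0.27 ± 0.10 and 0.58 ± 0.12. Arhgef17, the host of Mir3102, was not called, at 0.17 ± 0.10. Of the abundant miRNAs, Mir10b was higher by 1.48 ± 0.35 (edgeR adjusted p = 0.00339) and Mir5099 by 0.99 ± 0.21, both kept in all 30 alternatives. Mir10a was higher by 0.96 ± 0.33 (edgeR adjusted p = 0.0347), but kept in 13 of 30, and Mir27b, Mir151 and Mir1188 were kept in 9 to 11. Mir192, Mir410 and Mir486 were higher by 1.44, 1.53 and 1.51, each lost only without RM palmitate replicates 2 and 3 of dataset B. Without WT mock replicate 1 of dataset B, 58 were higher and 20 lower, 32 of the 33 first called among them, and 26.1% of all features were called. Mir671 was then called at 1.71 ± 0.24.

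The features without a Mir symbol also made up most of those whose difference between RM and WT changed with the dataset. For 14 of 176 features the log2 fold change was higher in B than in A (0 were lower), and 7.88% of all features were called. Of these 13 had no Mir symbol. All 6 features of the 57-nt family were among them, with a difference of 4.60 ± 0.48 for Gm23935 (edgeR adjusted p = 5.02e-07). Mir3064 was the other at 1.04 ± 0.31, kept in 13 of 30 alternatives. Leaving out WT mock replicate 1 of dataset B gave 20 features, these 14 included.

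Palmitate was compared with mock treatment within each form of PKR. These comparisons share their mock and palmitate libraries with those of RM against WT, so they are not separate evidence. In dataset A edgeR called 0 of 170 features with either form. With WT PKR 8 features had an unadjusted p under 0.05, beside 11.8% of all features, the smallest being that of Gm23388 (-0.82 ± 0.28, edgeR adjusted p = 0.239), and 0.335% of all features were called (0.238% higher, 0.0971% lower). With RM PKR 27 had an unadjusted p under 0.05, beside 13.4% of all features, and 0.477% of all features were called (0.318% higher, 0.159% lower). The palmitate libraries lay higher without overlap for 6 features with WT PKR, beside 7.66% of all features, and for 12 with RM PKR, beside 6.97%. By DESeq2 the counts were 0 with WT and 1 with RM PKR. Leaving out libraries gave 1 with WT PKR (without WT palmitate replicate 3). With RM PKR it gave 3 on removal of that library, 2 on removal of replicate 1 of WT palmitate or replicate 3 of RM mock, and 1 without any 1 RM palmitate library. Mir342 came nearest with RM PKR, at 1.42 ± 0.34 (edgeR adjusted p = 0.0751), and was followed by Mir221 at 0.98 ± 0.28. Mir99b had 9136, 5072 and 6679 CPM in RM palmitate and 1998, 2921 and 3274 CPM in RM mock libraries, with no overlap, and 3448, 6277 and 7952 CPM in WT palmitate and 3244, 3129 and 3747 CPM in WT mock libraries. Its differences of 1.35 ± 0.48 with RM and 0.80 ± 0.47 with WT PKR had edgeR adjusted p of 0.224 and 0.534.

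In dataset B with WT PKR, 4 features rose and 2 fell after palmitate, and 15.5% of all features were called, 9.43% higher and 6.12% lower. Without overlap 7 lay higher and 23 lower after palmitate, beside 19.6% and 19.1% of all features. The median over the 171 features was -1.98 with all libraries and -0.29 over 168 without WT mock replicate 1. The count was 44 without WT mock replicate 3, and 3 without WT mock replicate 1, WT palmitate replicates 2 or 3, or any 1 RM mock library. Mir763 had 3.04, 3.39 and 5.51 CPM in WT palmitate and 0.138, 0.457 and 0.836 CPM in WT mock libraries and rose by 3.07 ± 0.48 (edgeR adjusted p = 0.000819). Mir5125 had 3.52, 3.13 and 9.02 CPM in WT palmitate and 0.689, 0.152 and 1.0 CPM in WT mock libraries and rose by 3.09 ± 0.51. For Mir763 and Mir5125 these are the same WT mock values near the floor as above. Mir1906-2 rose by 2.41 ± 0.48. These 3 did not overlap between the groups and were called in all 12 alternatives, at 2.62, 3.22 and 1.93 without WT mock replicate 1. Mir1906-1, which lies in Meg3, rose by 1.89 ± 0.57 and Meg3 itself by 2.53 ± 0.41. Mir1906-2, on chromosome X, has a sequence that matched Meg3 in full, so reads of either locus cannot be told apart. Mir19b-1 and Mir98 fell by 2.40 and 2.29 on the log2 scale. The calls of Mir1906-1, Mir19b-1 and Mir98 were lost without WT mock replicate 1 or any WT palmitate library (adjusted p up to 0.265), and those of Mir1906-1 and Mir98 also without WT mock replicate 2.

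With RM PKR in dataset B, 7 features rose and 0 fell after palmitate, and 7.53% of all features were called, 5.08% higher and 2.45% lower. Without overlap 73 lay higher and 5 lower, beside 15.6% and 14.7% of all features. Without WT mock replicate 1 the counts were 37 and 0, with 11.9% of all features called. Of the 7, 6 had no Mir symbol. Gm24187 had 6723, 9532 and 13257 CPM in RM palmitate and 6206, 3086 and 3845 CPM in RM mock libraries and rose by 1.17 ± 0.30 (edgeR adjusted p = 0.0291). Gm25911 rose by 1.16 ± 0.33, ENSMUSG00000093361 by 2.09 ± 0.52, ENSMUSG00000093077 by 1.11 ± 0.31, Gm22133 by 1.45 ± 0.35, Gm24589 by 2.68 ± 0.73 and Mir3064 by 0.96 ± 0.28. Each of these 7 calls was lost without RM palmitate replicate 2 and without replicate 3, and in 6 to 8 of 12 alternatives in all. The count was 0 without RM palmitate replicate 2, RM palmitate replicate 3 or RM mock replicate 2, and 20 without RM palmitate replicate 1. It lay between 1 and 4 without any other single library of the dataset except WT mock replicate 1. Mir484 rose by 1.35 ± 0.26 (edgeR adjusted p = 0.00618) in the fit without WT mock replicate 1.

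Whether palmitate acted differently with RM than with WT PKR was tested as an interaction, the palmitate difference with RM less that with WT. In dataset A edgeR called 0 of 170 features and 0% of all features, and 7 features had an unadjusted p below 0.05, beside 4.14% of all features. The count by DESeq2 was 0. In dataset B edgeR called 0 of 171 and 0% of all features, but 101 had an unadjusted p under 0.05, beside 16.1% of all features, the median was 2.95, and DESeq2 called 59, beside 3.48% of the features it tested. Without WT mock replicate 1 the median was 1.46, edgeR called 0 features here and 0.0397% of all features, while it called 19 without RM palmitate replicate 1 and 3 without WT mock replicate 3. Mir763 had the smallest edgeR adjusted p, 0.0898, at -2.89 ± 0.63.

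Averaged over both forms of PKR and both datasets, 3 features were higher and 2 lower after palmitate, where 20.3% of all features were called. Mir5125 was higher by 0.76 ± 0.20 (edgeR adjusted p = 0.0075, kept in all 30 alternatives), Mir1906-2 by 0.88 ± 0.25 and Mir763 by 0.76 ± 0.27. Srrm2, the host of Mir5125, was also higher, by 0.49 ± 0.14 (edgeR adjusted p = 0.0118). Hmga2, the host of Mir763, was higher by 0.36 ± 0.10 (edgeR adjusted p = 0.00894). Mir763 was kept in 10 of 30 alternatives, and Mir1906-2 was lost without WT palmitate replicate 1 of dataset A (adjusted p = 0.0564). Pdia4, the host of Mir704, was lower, at -0.31 ± 0.09 (edgeR adjusted p = 0.017). Mir704 was lower, at -0.62 ± 0.20. It was lost without WT mock replicate 2 or RM palmitate replicate 3 of dataset A and without RM palmitate replicates 2 and 3 of dataset B (adjusted p up to 0.113). Mir5114, in the desaturase gene Scd2, was lower, at -0.42 ± 0.12, and Scd2 was at -0.58 ± 0.10. The call of Mir5114 was lost without RM palmitate replicates 2 and 3 of dataset B (adjusted p = 0.0618). Without WT mock replicate 1 of dataset B the counts were 22 and 2, with 19% of all features called.

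Of the 176 features 72 lay in 24 clusters within 10 kb of a neighbour, and 104 stood alone. There were 18 pairs, 4 groups of 3, a group of 7 and a group of 17. Levels within a cluster differed widely even per length. In the group of 7 at mm9 chromosome 12, 110824000-110833608, antisense to Rtl1, Mir127 had 459 times the CPM per kb of Mir433. Mir182 had 309 times those of Mir96 on chromosome 6, and Mir541 had 224 times those of Mir1193 in the group of 17 on chromosome 12. In the Mir17 cluster on chromosome 14, known for promoting growth in tumours, Mir92-1 had 76.1 times those of Mir19b-1. The neighbours Mir181d and Mir181c differed by 1.14 times.

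**Figure D5:**
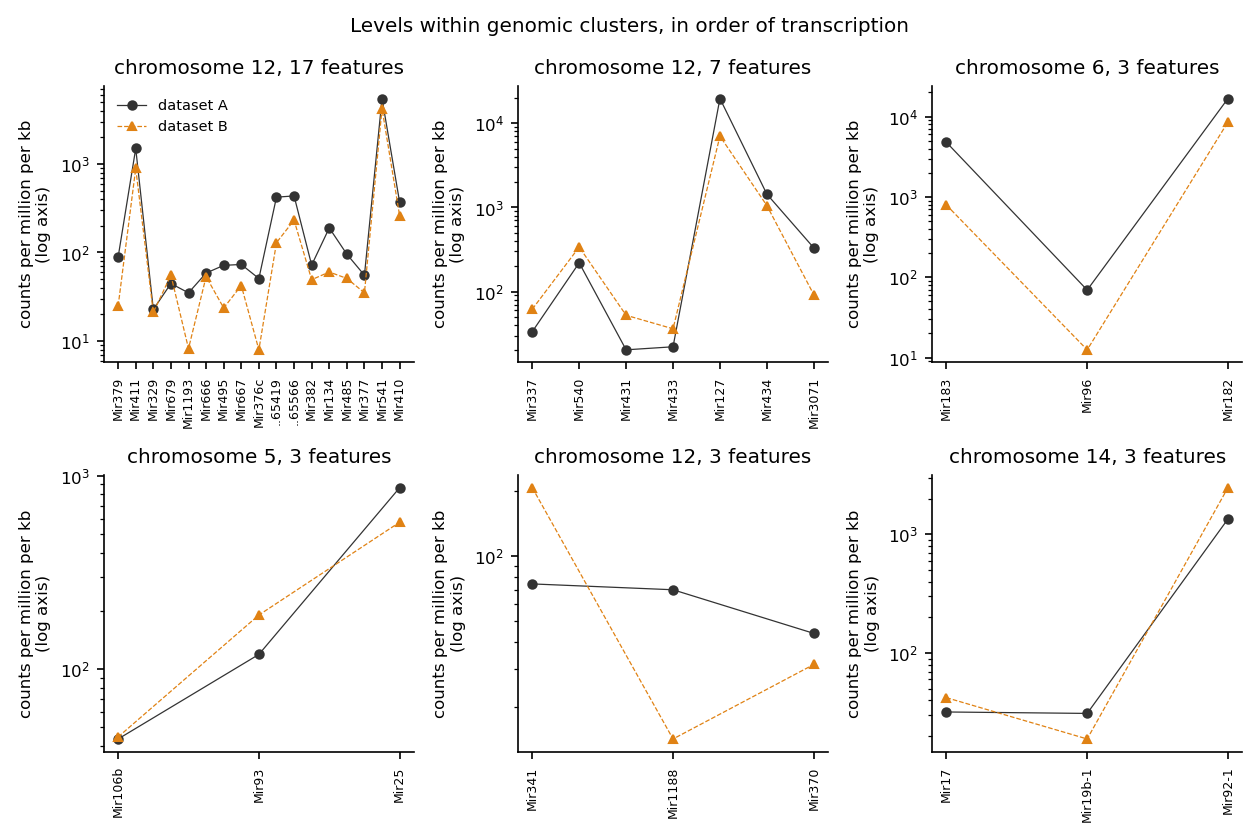
Level of each feature (CPM on plain library totals, per kb, log axes that differ between panels) in the 6 clusters of 3 or more features, in order of transcription, in dataset A (circles) and dataset B (triangles). Lines join neighbours. Mir541, Mir127, Mir182, Mir25 and Mir92-1 lie highest in both datasets in their clusters.

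In palmitate-treated cells of dataset A the group of 17 had a median log2 fold change of -0.08 and a range of -0.62 to 2.23, the top being Mir410. In the average over treatments and datasets 1 of these 17 was called, Mir410, beside 25.5% of all features. The group of 7 had medians of -0.18 under palmitate in dataset A and -0.29 in the average. Mir25, Mir93 and Mir106b lay between 0.81 and 1.13 under palmitate in dataset A, and the pair Mir23b and Mir27b at 1.21 and 1.7. The same comparison put Mir182, Mir96 and Mir183 between -0.03 and 0.51.

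Grouping by seed gave 29 seeds shared by at least 2 features, over 61 features in all. The let-7 seed GAGGUAG was shared by 9, whose targets include growth-promoting genes. Their log2 fold changes, RM over WT, had a median of 0.27 in mock-treated and 0.33 in palmitate-treated cells of dataset A, and of -1.66 and 1.88 in dataset B. In dataset B the medians in mock-treated cells rested on WT mock replicate 1, and without it that of the let-7 seed was 0.02. The seed AUUGCAC of Mir25, Mir92-1, Mir92-2 and Mir92b had medians of 1.22 and 1.56 in dataset A. There 2 of the 4 were called under palmitate, beside 3.43% of all features. In dataset B the medians of this seed were -1.46 (0.61 without WT mock replicate 1) and 2.12. The seed ACCCUGU of Mir10a and Mir10b gave 0.58 and 0.88 in dataset A and 0.34 and 3.05 in dataset B. That of Mir99a, Mir99b and Mir100, ACCCGUA, gave -0.30 and -0.03 in A and -0.10 and 1.77 in B. Without WT mock replicate 1 the mock medians of these seeds in B were 1.88 and 1.47. Under palmitate the medians of the 4 seeds were 1.76 to 3.04 in that fit.

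Hairpins that give the same mature sequence had nearly equal counts in several pairs, so reads of a mature strand may have been counted at both or shared between them. The ratio of mean counts was 0.993 for Mir26a-1 over Mir26a-2, 1.01 for Mir16-1 over Mir16-2 and 1.01 for Mirlet7c-1 over Mirlet7c-2. It was 2.17 for Mir1906-1 over Mir1906-2 and 15.2 for Mir92-1 over Mir92-2. Values of such pairs are uncertain feature by feature.

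Of the 176 features 105 overlapped another annotated feature, 88 of them on the same strand, and whether counting used strand is not given for datasets A and B. For the 45 same-strand pairs of dataset B in which the miRNA feature held under 50% of the host's counts, the median log2 fold change of RM over WT under palmitate was 1.21 for the miRNA features and 0.00 for the hosts. In mock-treated cells it was -1.09 and -0.01, but 0.02 and 0.06 over the 43 pairs tested without WT mock replicate 1. In dataset A the 42 such pairs had medians of 0.47 and 0.00 under palmitate, and 0.27 and 0.23 in mock-treated cells. At the other end, Mir10a held 99.8% of the counts given to Hoxb4, so the value of Hoxb4 is that of Mir10a.

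Some features overlap or resemble mRNAs. There were 5 like Actg1, 5 like the ribosomal protein gene Rpl37a (Mir682 among them), 2 like Eef1a1 and 1 like Ftl1. Gm23419 lies in the cytoplasmic actin gene Actg1 on chromosome 11, and its 84 nt read (GENCODE M21, sense strand, shown whole for comparison with actin mRNA):
Gm23419: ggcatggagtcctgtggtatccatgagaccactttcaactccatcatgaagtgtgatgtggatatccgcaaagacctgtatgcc
It had 13.5, 12.2 and 10.5 CPM in RM palmitate and 16.4, 13.5 and 12.8 CPM in RM mock libraries of dataset B, against 25.6, 24.7 and 24.2 CPM in WT palmitate and 26.0, 23.1 and 21.1 CPM in WT mock libraries. No RM library reached the lowest WT library. Its log2 fold change, RM over WT, was -0.71 ± 0.14 in mock-treated (edgeR adjusted p = 0.00467) and -1.02 ± 0.17 in palmitate-treated cells (edgeR adjusted p = 0.0033), and that of Actg1 was -0.43 ± 0.15 (edgeR adjusted p = 0.0673) and -0.55 ± 0.15 (edgeR adjusted p = 0.0385). The call of Gm23419 under palmitate was lost without both RM palmitate replicates 2 and 3 (adjusted p = 0.143). Gm22133 and its host Ftl1, a ferritin gene, rose together under palmitate in that dataset, by 1.55 and 1.48.

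Dataset C, with 1 library per group and hence no test, gave counts by strand. Of the 176 features 171 had at least 99% of their counts on their own strand, and 165 had all of them. Mir486 had 50.5%. Features with a Mir symbol held 1.55% of counts in the RM palmitate library, 0.516% in RM mock, 0.371% in WT palmitate and 0.294% in WT mock. Among 113 such features with at least 40 counts over the 4 libraries, the log2 ratio of RM over WT was positive for 110 under palmitate (median 2.08) and for 103 in mock-treated cells (median 0.88). Features without a Mir symbol held 3.34% in RM palmitate, 4.75% in RM mock, 8.59% in WT palmitate and 8.49% in WT mock. Of 28 such features with at least 40 counts, 15 had a positive log2 ratio of RM over WT under either treatment, with medians of 0.83 under palmitate and 0.46 in mock-treated cells, so the lower shares came from some of them. Gm23935 had 544 (531 to 558) CPM, on plain library totals, in RM palmitate, 1234 (1212 to 1256) in RM mock, 1908 (1878 to 1939) in WT palmitate and 2302 (2267 to 2336) in WT mock, with exact 95% Poisson intervals that cover counting error only. ENSMUSG00000092927 had 4.29 (3.18 to 5.65), 11.3 (9.30 to 13.5), 34.4 (30.4 to 38.8) and 28.8 (25.1 to 32.9) in those libraries. Mir10b had 3637 (3602 to 3672), 1316 (1294 to 1339), 835 (815 to 856) and 800.1 (780.0 to 821).

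The mRNAs of the miRNA pathway itself were followed with a list of 25 genes, of which 23 were tested in dataset A and 22 in dataset B. In mock-treated cells Mov10, a helicase that works with Argonaute, was lower in RM in dataset A, at -0.79 ± 0.19 (edgeR adjusted p = 0.0187), the 1 gene called there, where 3.74% of all features were called. In dataset B 4 were higher in RM and 0 lower, beside 7.88% and 6.24% of all features, and 2 were higher (Dicer1 and Tnrc6c) without WT mock replicate 1. Tnrc6c and Tnrc6a, whose proteins bind Argonaute and recruit the machinery that shortens mRNA tails, rose by 0.48 ± 0.11 and 0.37 ± 0.10, Dgcr8 by 0.42 ± 0.13 and Dicer1 by 0.38 ± 0.12. After palmitate with WT PKR in dataset B 5 were higher, Ddx17 (0.57 ± 0.13), Khsrp (0.50 ± 0.15), Tnrc6c (0.48 ± 0.11), Dicer1 (0.47 ± 0.12) and Adar (0.42 ± 0.14), beside 9.43% of all features. Without WT mock replicate 1, Ddx17, Tnrc6c and Dicer1 were higher and Ran was lower. In the average over treatments and datasets 5 were higher and 4 lower in RM, beside 13.1% and 12.4% of all features. Averaged over forms of PKR, where 20.3% of all features were called, Dicer1 was 0.46 ± 0.10, Ddx5 0.36 ± 0.11 and Xpo5 0.28 ± 0.09 higher, while Tut4, which adds uridines to let-7 precursors, was at -0.39 ± 0.08. These mRNAs came down with PKR as the miRNA features did, and their part in the miRNA levels was not tested.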

How the data were processed

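RNA that came down with PKR was sequenced from mouse embryonic fibroblasts in 3 datasets. The deposited tables give raw read counts per feature, which the authors made with CASAVA 1.7.0 or 1.8.2 and Novoalign on mm9, per the submitters' processing notes. Of their columns 32 count columns were used and 52 other per-sample columns were not. Strand use in datasets A and B and a 2hr mark on columns of dataset B are not explained in the sources used here. The groups follow the labels. The members and gene lists were chosen with earlier results of these data known.

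Counts as deposited were fitted with edgeR 4.0.16 (R 4.3.3, limma 3.58.1), with filterByExpr, TMM scaling, robust quasi-likelihood tests and 1 mean per group, over 12 libraries of a dataset or all 24 for averages. Of the 176 features 170 passed the filter in A, 171 in B and 176 in both together. P-values were Benjamini-Hochberg adjusted over all features. CPM values were computed from the deposited counts with TMM scaling. Shares were compared with exact permutation tests (scipy 1.17.1). Sequences were compared with BLAST 2.17.0. Features named in the text are the 10 with the highest levels, up to 10 called per comparison and direction (the 3 smallest p where none was called), those of clusters and shared seeds, the neighbours of the minimum count, and genes that overlap them. Mir214, Mir155 and others called only without 1 library were chosen after their values were seen. Alternatives were DESeq2 1.42.0, its size factors, total counts, no filter, a replicate block, a higher minimum count, and each library left out. For the call of a single feature within a dataset, only libraries of the groups compared were left out. For counts of called features with 1 library left out, the share of all features is given only for WT mock replicate 1 of dataset B. Tested on simulated data, the RM against WT fit in mock-treated cells recovered 48% of 2-fold and 87% of 4-fold changes in dataset A (11328 features), and 64 and 90% in dataset B (12466 features). Of its calls 6.25% in A and 3.14% in B were false. The changes were planted in features of any kind drawn at random among those above a minimum total count. Recovery among features with lower counts, or among the miRNA features, was therefore not measured.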

Additional observations from a re-analysis of the deposited data

Results flagged for a closer look

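For 14 features the difference between RM and WT was itself different in the 2 datasets, as tested in 1 fit over 24 libraries (edgeR's quasi-likelihood test, difference of the log2 fold changes, dataset B minus dataset A). All were higher in B. Of all features 7.88% were called, 5.35% higher and 2.53% lower, so the share of 7.95% here is close to that of all features. In the 57-nt family the difference was 4.60 ± 0.48 (SE) for Gm23935 (edgeR adjusted p = 5.02e-07), 3.05 ± 0.40 for Gm25911, 3.03 ± 0.36 for Gm23388, 2.09 ± 0.37 for Gm24187, 1.99 ± 0.36 for Gm24270 and 2.51 ± 0.50 for Gm24245. Among features without a GENCODE M21 entry it was 5.07 ± 0.64 for ENSMUSG00000092927 (edgeR adjusted p = 0.000114), 4.88 ± 0.86 for ENSMUSG00000076291, 3.91 ± 0.86 for ENSMUSG00000093361, 2.74 ± 0.43 for ENSMUSG00000093337, 2.62 ± 0.58 for ENSMUSG00000092984, 2.27 ± 0.37 for ENSMUSG00000093098 and 1.7 ± 0.44 for ENSMUSG00000093077. Mir3064 was the 1 feature with a Mir symbol, at 1.04 ± 0.31 (edgeR adjusted p = 0.0369). The call of ENSMUSG00000076291, ENSMUSG00000093361 and ENSMUSG00000093077 was lost without RM palmitate replicates 2 and 3 of dataset B (adjusted p up to 0.184), and that of Mir3064 in 17 of 30 alternatives. The datasets also differ in small nucleolar RNA share and in the level of these features, and the part of either was not tested.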

How the results depend on the processing

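Each count of called features was computed again under alternatives to the processing. Without the filter on low counts, 35 and 47 features were called for RM against WT in mock-treated and palmitate-treated cells of dataset A, 3 and 16 for palmitate against mock with WT and RM PKR in dataset A, and 1 and 5 for the interaction in A and B, where 3.71, 4.31, 1.01, 1.79, 0.452 and 0.637% of all features were called in the same order. DESeq2 called 40, 40, 50, 22 and 59 in dataset B for RM against WT mock, RM against WT palmitate, palmitate against mock with WT, the same with RM, and the interaction, beside 12.9, 8.6, 13.8, 8.94 and 3.48% of all features. For palmitate with RM in A it called 1, beside 0.471% of all features. Total counts in place of TMM gave 7 for RM against WT palmitate in B and 4 for the interaction in B, beside 16.9 and 0.955% of all features. The fit without RM palmitate replicates 2 and 3 of dataset B leaves 1 library in that group, so no count of called features is read from it. Features with a Mir symbol alone gave 6 and 9 for RM against WT mock and palmitate in A, 5 and 1 in B, 1 for palmitate with RM in B and 14 for the averaged RM against WT; this alternative and that without RM palmitate replicates 2 and 3 differ by construction in features or samples. For the other alternatives the cause was not tested.

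The main fit did not use the replicate numbers as pairs. Same-numbered libraries correlated at -0.258 to 0.360 in A and -0.147 to 0.290 in B. Libraries with different numbers correlated at -0.340 to 0.304 in A and -0.237 to 0.245 in B. These ranges overlap, so they cannot decide whether the numbers pair the libraries. A fit with the replicate number as a block called 21 for RM against WT mock and 27 for palmitate in A, 10 and 3 in B, 2 for palmitate with RM in A and 1 for the interaction in B. In the same order it called 3.95, 3.06, 16.3, 10, 0.327 and 0.369% of all features.

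Leaving out each library in turn gave 12 to 23 and 12 to 25 features for RM against WT mock and palmitate in A, 4 to 32 and 1 to 56 in B, 0 to 1 and 0 to 3 for palmitate with WT and RM in A, 3 to 44 and 0 to 37 in B, 0 to 0 and 0 to 19 for the interaction in A and B, 27 to 78 for the averaged RM against WT and 4 to 24 for averaged palmitate. The share of counts on the 176 features had a ratio of palmitate over mock between 0.613 and 1.05 with WT PKR in A (1.05 without WT palmitate replicate 1, which turned its direction) and between 0.960 and 1.52 with RM PKR (0.960 without RM palmitate replicate 3). Total counts in place of TMM moved the median log2 fold change of all features by 0.19 and 0.40 for RM against WT mock and palmitate in A, -0.14 for palmitate with WT and 0.20 for the interaction in A, -0.36 for RM against WT palmitate, -0.37 for palmitate with RM and -0.33 for the interaction in B, -0.13 for averaged palmitate and -0.48 for the difference of RM against WT between the datasets. That difference was then called for 20 features, 13 higher and 7 lower in B, against 14 higher and 0 lower with TMM. Of all features 20.8% were called with total counts and 7.88% with TMM. DESeq2 called 18 for it, 15 higher and 3 lower. In simulated data 48% of 2-fold changes were recovered in dataset A and 64% in dataset B for RM against WT in mock-treated cells, so changes of that size may go uncalled. These shares are for features of any kind above a minimum total count, and the share among the miRNA features was not measured. An adjusted p that DESeq2 did not give was left out.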
